A study of Mus musculus with 24 samples.

Results

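The unfolded protein response and endoplasmic reticulum (ER) folding genes were followed in whole-brain RNA of mice aged 4 months. The set held 37 members of 18193 genes that the arrays named by a probe set carrying a single gene symbol. The members were listed by symbol, with earlier results of these data known. All 37 members had at least 1 such probe set, with 90 probe sets in all. The brightest probe set stood for each member in the counts, and every probe set was read for single genes. Total RNA was measured on 24 Affymetrix expression arrays, 1 per sample, in 4 groups of 6: wild type (wt), aSYN, Hsp70, and animals with both (aSYN/Hsp70). The name aSYN is taken to mean alpha-synuclein, since its long form is not among the labels. Neither the promoter, the species of the added genes nor the way the lines were produced is given there. Whether each sample was its own animal is not stated either, and the p-values cover the scatter of these samples alone. In a whole brain, fewer cells of a type and less RNA per cell cannot be told apart.

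The unfolded protein response adjusts the folding capacity of the ER to its load of secretory and membrane proteins. Sensors in the ER membrane (ATF6, IRE1 and PERK) start a transcription programme that raises chaperones, disulfide isomerases and the machinery that sends misfolded proteins to the proteasome, and PERK also slows translation. In the brain, neurons with a large secretory and membrane load depend on it, and it has been studied widely in alpha-synuclein models. HSP70 of the cytosol is a relative of the ER chaperone BiP, the product of Hspa5, and belongs to a different compartment.

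Many members are known targets of ATF6 and spliced XBP1, which act through the ER stress response element (ERSE): CCAAT, any 9 bases, then CCACG. Promoter windows from RefSeq (build GRCm38.p6, 250 bases before to 50 after each gene's start, 300 bases each) were available for 31 of the 37 members, 32 windows in all. The windows of Hspa5 and Canx are shown because they hold an ERSE, with its fixed bases in capitals. The Hspa5 window also holds the core of the UPR element, TGACGTG, in capitals. The window of Sel1l is shown because its probe sets shared a sign in aSYN versus wt and in aSYN/Hsp70 versus aSYN below. This window held neither ERSE nor UPR element core.
Hspa5 (chr2:34771840-34772139, plus strand): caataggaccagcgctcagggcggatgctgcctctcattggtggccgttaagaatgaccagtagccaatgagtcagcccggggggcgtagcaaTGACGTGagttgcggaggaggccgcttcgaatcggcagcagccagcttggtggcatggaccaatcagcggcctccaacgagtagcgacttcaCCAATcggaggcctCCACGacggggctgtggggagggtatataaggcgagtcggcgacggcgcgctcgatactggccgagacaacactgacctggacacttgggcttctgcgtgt
Canx (chr11:50325624-50325923, minus strand): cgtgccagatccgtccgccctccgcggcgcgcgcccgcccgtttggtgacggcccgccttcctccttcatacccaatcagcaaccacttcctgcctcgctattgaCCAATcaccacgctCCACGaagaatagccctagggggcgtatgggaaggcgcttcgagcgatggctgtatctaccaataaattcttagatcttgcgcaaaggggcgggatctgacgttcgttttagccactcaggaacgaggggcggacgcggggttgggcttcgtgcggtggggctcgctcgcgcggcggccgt
Sel1l (chr12:91849108-91849407, minus strand): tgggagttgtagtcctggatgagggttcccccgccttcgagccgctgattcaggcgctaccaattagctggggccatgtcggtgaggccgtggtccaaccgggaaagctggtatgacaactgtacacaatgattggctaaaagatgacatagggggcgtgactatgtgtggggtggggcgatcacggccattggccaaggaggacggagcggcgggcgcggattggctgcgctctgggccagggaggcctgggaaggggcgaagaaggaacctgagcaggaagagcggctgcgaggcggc
Read on both strands, an exact ERSE was found in 39 of 32851 promoter windows (0.119%), and 8 of the 31 members had at least 1. The matches of these members are listed from CCAAT to CCACG, because they show that only the fixed bases are shared.
Hspa5: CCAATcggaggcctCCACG
Calr: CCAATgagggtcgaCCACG
Hsp90b1 (farther match): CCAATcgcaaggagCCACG
Hsp90b1 (nearer match): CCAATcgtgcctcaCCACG
Canx: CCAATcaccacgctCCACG
Pdia6: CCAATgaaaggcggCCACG
Dnajc3: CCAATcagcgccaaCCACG
Creld2: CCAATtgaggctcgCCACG
Syvn1: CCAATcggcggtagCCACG
The matches lay between 212 bases and 26 bases before the gene start, and those of Calr and Creld2 and the nearer of Hsp90b1 were on the strand opposite to the gene. A second form, ERSE-II (ATTGG, any base, CCACG), was present in 12 windows (0.0365%), among them Herpud1 (ATTGGgCCACG) and Dnajb11 (ATTGGcCCACG). The UPR element core was present in 661 windows (2.01%), 2 of them those of members, Hspa5 and Vcp. The motif CCACG alone was in 32.8% of all windows and in 24 of the 31 members, and each ERSE and ERSE-II match contains it. These matches describe the letters of the windows and do not show binding.

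**Figure D1:**
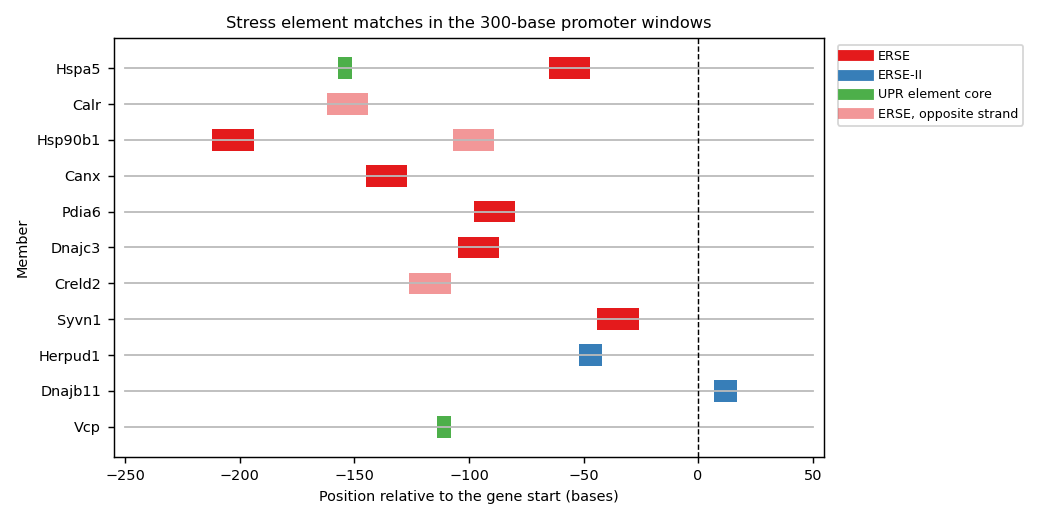
Positions of exact matches to ERSE (red, pale on the opposite strand), ERSE-II (blue) and the UPR element core (green) in the promoter windows of the 11 members that hold any of them, in bases from the gene start (dashed line). The Dnajb11 match starts 7 bases after the gene start, and all others lie before it.

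Levels are log2 of the deposited intensity plus 16, after quantile normalisation, and a difference is the difference of 2 group means in log2 units. Levels of different probe sets are not compared. Of the 90 probe sets of members, 78 were tested and 12 fell among the dimmest 40%, so 36 members had a tested brightest probe set and Atf3 did not. Array medians ran from 458 to 893 intensity units. Limma gave 4 arrays weights under 0.5, called low-weight arrays below. In aSYN/Hsp70 they were replicate 4 (0.124) and replicate 3 (0.394), and in Hsp70 replicate 3 (0.251) and replicate 6 (0.332). All 6 neuron markers, 6 astrocyte and 6 microglia markers and 5 oligodendrocyte markers were measured above the filter. Of 6 markers of liver and muscle, 5 were below it (Fabp1, Alb, Myh4, Ckm and Apoa1).

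None of the 36 tested members passed an adjusted p of 0.05 on the brightest probe set in any of the 8 comparisons of limma. The module was lower in aSYN than in wt brains for 28 of 37 members, with a median difference of -0.10, against 48.1% lower and a median of 0.01 over all named genes. The balance between aSYN/Hsp70 and aSYN was the other way, with 23 of 37 members higher in aSYN/Hsp70 (median 0.06, against 0.01 over all genes). Without the low-weight arrays the counts were 28 of 37 and 25 of 37. These comparisons share the aSYN arrays, so the opposite signs are not independent of each other. As 1 score per array, the mean over the 37 members relative to wt, aSYN brains ranged from -0.20 to 0.07 with a median of -0.08, and wt brains from -0.13 to 0.16 with a median of 0.01. The score ranged from -0.17 to 0.18 in Hsp70 and from -0.16 to 0.11 in aSYN/Hsp70, so all 4 groups overlapped.

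The members' counts at an unadjusted p under 0.05, on the brightest probe set, are set beside the share of all probe sets tested. That share includes every tested probe set of a gene. In aSYN versus wt, 0 of 36 members reached an unadjusted p under 0.05, where 5.17% of all probe sets did (0.0037% passed after adjustment). In Hsp70 versus wt, 4 of 36 did, where 4.83% of all probe sets did (0% after adjustment). In aSYN/Hsp70 versus wt, 8 of 36 did (22.2%), against 14.5% of all (0% after adjustment). Between aSYN/Hsp70 and aSYN, the comparison with the most calls, 5 of 36 did (13.9%), against 19.6% of all (0.718% after adjustment). Between aSYN/Hsp70 and Hsp70, 1 of 36 did, against 9.62% of all (0% after adjustment). The interaction, the Hsp70 difference with aSYN minus that without it, had 1 of 36, against 8.13% of all (0% after adjustment). Carriers of aSYN against non-carriers had 1 of 36, against 6.39% of all (0% after adjustment). Carriers of Hsp70 against non-carriers had 9 of 36 (25.0%), against 17.7% of all (0% after adjustment), 5 of the 9 higher and 4 lower. Counted over all 78 tested probe sets of members, 1 passed, a Canx probe set in aSYN/Hsp70 versus aSYN. Of these 78, an unadjusted p under 0.05 was reached by 6 in aSYN versus wt, 4 in Hsp70 versus wt and 14 in aSYN/Hsp70 versus wt. It was reached by 17 in aSYN/Hsp70 versus aSYN, 4 in aSYN/Hsp70 versus Hsp70 and 8 for the interaction. Carriers of aSYN had 4 and carriers of Hsp70 had 17. These counts have the same unit as the shares of all probe sets.

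**Figure D2:**
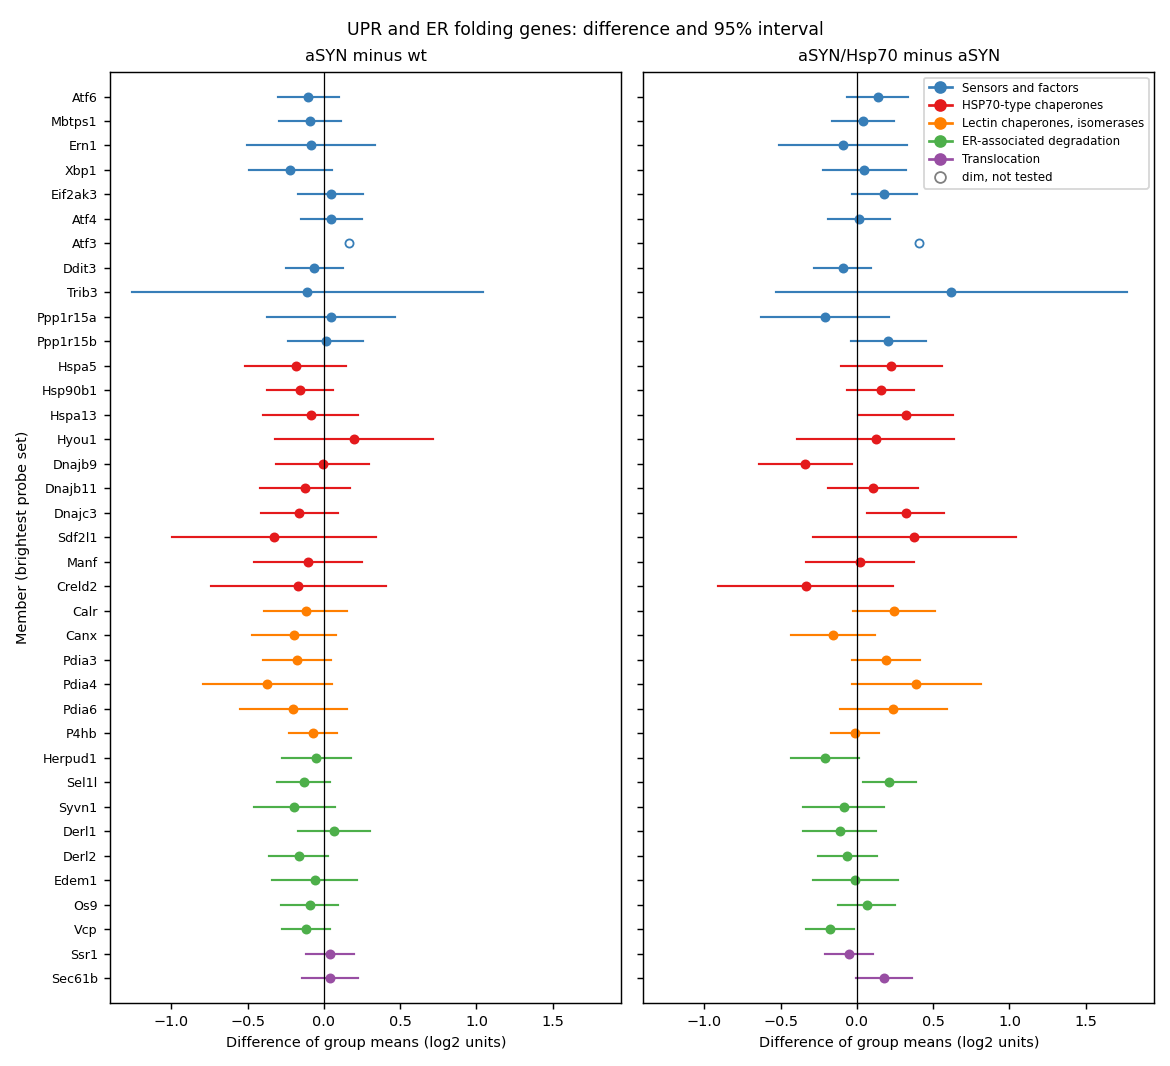
Log2 difference of each member's brightest probe set with its 95% interval from limma, aSYN minus wt on the left and aSYN/Hsp70 minus aSYN on the right, coloured by role. On the left 28 of 37 points lie below 0 and on the right 23 lie above it, and most intervals cross 0.

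Among the sensors and transcription factors, 6 of 11 were lower in aSYN than in wt (median -0.06) and 8 of 11 were higher in aSYN/Hsp70 than in aSYN (median 0.05). Xbp1 encodes the factor that IRE1 activates by splicing, and the arrays gave its level, not its splicing. It ran from 14.64 over a median of 14.95 to 15.11 in wt, from 14.42 over 14.66 to 15.07 in aSYN, from 14.32 over 14.83 to 15.05 in Hsp70 and from 14.54 over 14.70 to 15.00 in aSYN/Hsp70. The groups overlapped, and the difference of aSYN from wt was -0.22 (SE 0.13, limma adjusted p = 1.0). Its other probe sets gave -0.28, 0.25 and -0.25, so they did not share a sign. Atf4 encodes the factor whose translation PERK signalling favours. Its level ran from 13.84 over 13.99 to 14.11 in wt, from 13.95 over 14.02 to 14.20 in aSYN, from 14.03 over 14.18 to 14.56 in Hsp70 and from 13.81 over 14.02 to 14.34 in aSYN/Hsp70. All 6 Hsp70 arrays lay above the wt mean and 3 above the highest wt array, with a difference of 0.24 (SE 0.10, limma adjusted p = 0.881). Without the 4 arrays of low weight this difference was 0.11. The next probe set of Atf4 differed by -0.10, or -0.03 without them.

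Ddit3 encodes CHOP, a factor of the PERK branch linked to cell death under lasting stress. It ran from 12.26 over 12.33 to 12.55 in wt, from 12.23 over 12.27 to 12.38 in aSYN, from 12.11 over 12.38 to 12.60 in Hsp70 and from 12.05 over 12.16 to 12.43 in aSYN/Hsp70. Of the aSYN/Hsp70 arrays, 4 lay below the lowest wt array, but the difference of -0.16 (SE 0.09) had a limma adjusted p of 0.404. Against wt, aSYN differed by -0.06 (SE 0.09, 95% interval -0.25 to 0.12). Eif2ak3, the gene of PERK itself, was 0.22 higher in aSYN/Hsp70 than in wt (SE 0.10, limma adjusted p = 0.334) with 6 of 6 arrays above the wt mean. Without the low-weight arrays it was 0.15 higher. Ppp1r15b encodes the constitutive subunit of the phosphatase that undoes PERK signalling, and differed by 0.23 between aSYN/Hsp70 and Hsp70 (SE 0.12, limma adjusted p = 0.555), or 0.08 without the low-weight arrays. Trib3 and Atf3, downstream of ATF4, spread most of all members, with pooled SDs of 1.00 and 1.26, and Atf3 was too dim to be tested. For Atf6 the interaction was 0.20 (SE 0.14, limma adjusted p = 0.749), or 0.09 without the low-weight arrays.

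Of the 10 HSP70-type chaperones and their partners, 9 were lower in aSYN than in wt (median -0.14, range -0.33 to 0.20) and 8 were higher in aSYN/Hsp70 than in aSYN (median 0.14). Hspa5 encodes BiP, the main HSP70 of the ER and a restraint on the sensors. It ran from 15.46 over 15.71 to 16.01 in wt, from 15.23 over 15.53 to 15.99 in aSYN, from 15.37 over 15.71 to 16.40 in Hsp70 and from 15.55 over 15.75 to 16.01 in aSYN/Hsp70. In aSYN 3 of 6 arrays fell under the wt range while the highest was close to the highest of wt, and the difference was -0.19 (SE 0.16, 95% interval -0.52 to 0.14, limma adjusted p = 1.0). Its other probe sets gave -0.19 and -0.21. The brightest gave 0.23 in aSYN/Hsp70 versus aSYN, and the others -0.19 and 0.65, the last with a limma adjusted p of 0.122. Without aSYN/Hsp70 replicate 4 the others were -0.02 and 0.47. Hsp90b1 encodes GRP94, the HSP90 of the ER. It ran from 14.02 over 14.19 to 14.31 in wt, from 13.88 over 13.95 to 14.40 in aSYN, from 13.82 over 14.14 to 14.37 in Hsp70 and from 13.87 over 14.22 to 14.41 in aSYN/Hsp70. Of the aSYN arrays, 4 lay below the lowest wt array and 1, replicate 4, above the highest, with a difference of -0.16 (SE 0.10, limma adjusted p = 1.0). Its other probe set, 1415889_a_at, gave -0.17. In aSYN/Hsp70 versus wt that probe set gave -0.49, or -0.30 without the low-weight arrays, and the brightest -0.0030, or 0.01 without them. In aSYN/Hsp70 versus aSYN the probe sets of Hsp90b1 had both signs.

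Sdf2l1 encodes a partner of BiP and of the co-chaperone DNAJB11, and had the largest pooled SD of the chaperones, 0.58. It ran from 10.54 over 10.88 to 11.62 in wt, from 10.26 over 10.54 to 11.55 in aSYN, from 9.57 over 11.00 to 12.32 in Hsp70 and from 10.69 over 10.99 to 11.38 in aSYN/Hsp70. The Hsp70 group alone covered the range of all other arrays (SD 0.94, n = 6), both ends being low-weight arrays, replicates 3 and 6. The aSYN difference of -0.33 (SE 0.32) had a 95% interval of -0.99 to 0.34.

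Hspa13 encodes an HSP70-like protein of microsomes. It ran from 12.39 over 12.98 to 13.24 in wt, from 12.25 over 12.92 to 13.11 in aSYN, from 12.61 over 12.80 to 12.86 in Hsp70 and from 12.85 over 13.08 to 13.64 in aSYN/Hsp70. Between aSYN/Hsp70 and Hsp70 the ranges barely met, with 5 of 6 arrays above the highest of Hsp70 and a difference of 0.38 (SE 0.15, limma adjusted p = 0.427), which was 0.18 without the low-weight arrays. Its other tested probe sets gave 0.14, -0.06 and -0.08, or 0.29, 0.14 and -0.03 without those arrays. Dnajc3 encodes the BiP co-chaperone P58IPK. It ran from 11.54 over 11.71 to 12.02 in wt, from 11.25 over 11.62 to 11.81 in aSYN, from 11.58 over 11.89 to 12.31 in Hsp70 and from 11.78 over 11.85 to 12.08 in aSYN/Hsp70. Above the highest aSYN array lay 4 of 6 aSYN/Hsp70 arrays, with a difference of 0.32 (SE 0.12, limma adjusted p = 0.169), but its 4 other probe sets gave -0.93, -0.34, -0.29 and -0.20. Without aSYN/Hsp70 replicate 4, a low-weight array, these were -0.44, -0.23, -0.0012 and -0.16.

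Dnajb9 encodes ERdj4, a co-chaperone of BiP and a classical XBP1 target. It ran from 13.45 over 13.62 to 13.90 in wt, from 13.49 over 13.59 to 13.81 in aSYN, from 12.79 over 13.41 to 13.53 in Hsp70 and from 12.68 over 13.37 to 13.74 in aSYN/Hsp70. The Hsp70 carriers lay lower in both backgrounds, by -0.30 without and -0.34 with aSYN, and together by -0.32 (SE 0.10, limma adjusted p = 0.197). The lowest value of each carrier group was a low-weight array, and without those arrays the carrier difference was -0.16.

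All 6 lectin chaperones and disulfide isomerases were lower in aSYN than in wt, from -0.37 to -0.07 with a median of -0.18, and 0 of them reached an unadjusted p under 0.05 in limma. In aSYN/Hsp70 versus aSYN 4 of 6 were higher (median 0.21), the exceptions being Canx and P4hb on their brightest probe sets. Calr encodes calreticulin, a calcium-binding lectin chaperone of the lumen. It ran from 14.86 over 15.13 to 15.28 in wt, from 14.70 over 14.91 to 15.30 in aSYN, from 15.03 over 15.19 to 15.70 in Hsp70 and from 14.84 over 15.22 to 15.53 in aSYN/Hsp70. The aSYN difference was -0.12 (SE 0.13, 95% interval -0.39 to 0.15), and its other probe sets gave -0.10 and -0.20. Pdia4 encodes the isomerase ERp72. It ran from 10.51 over 10.68 to 11.15 in wt, from 9.91 over 10.40 to 10.98 in aSYN, from 10.67 over 11.12 to 11.79 in Hsp70 and from 10.38 over 10.75 to 11.41 in aSYN/Hsp70. Of the aSYN arrays 4 of 6 fell under the wt range, and 3 of 6 Hsp70 arrays exceeded it. Its differences were -0.37 for aSYN versus wt (SE 0.20) and 0.42 for Hsp70 versus wt (SE 0.20), with limma adjusted p of 0.999 and 0.881. Without the low-weight arrays Pdia4 differed by 0.28 in Hsp70 versus wt. Between aSYN/Hsp70 and Hsp70 it differed by -0.40 (limma adjusted p = 0.541), or -0.16 without the low-weight arrays.

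**Figure D3:**
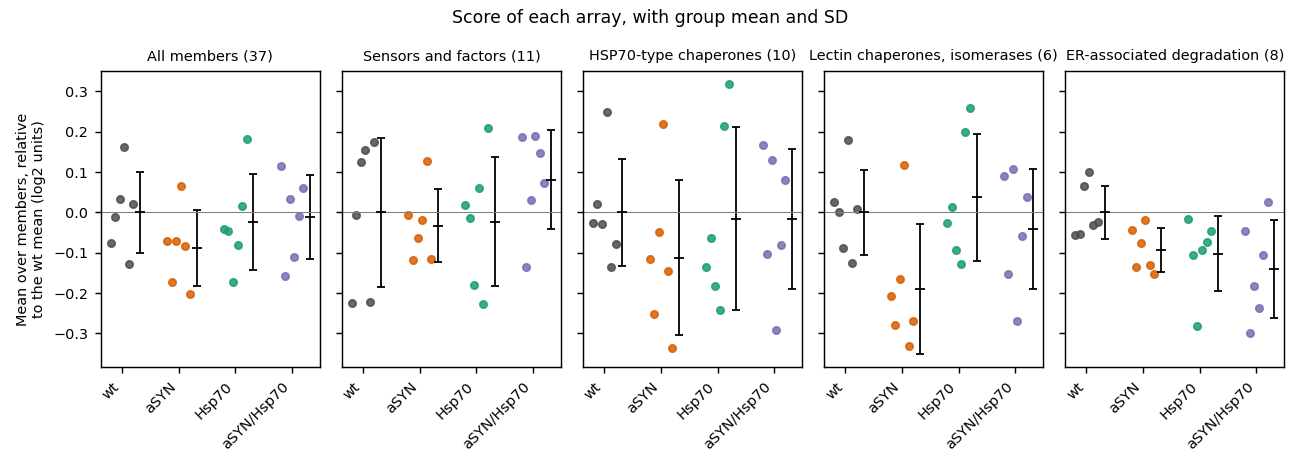
Score of every array, the mean over the members of a role minus the wt mean in log2 units, for all members and 4 role groups, with the mean and SD of each group beside the points (n = 6 arrays). The lectin chaperones and isomerases of aSYN lie at a median of -0.24, apart from replicate 4 at 0.12, and every group overlaps the others.

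Canx encodes calnexin, the membrane-bound lectin chaperone that holds new glycoproteins until they fold, and had the single called probe set of the module. On probe set 1422845_at it ran from 13.59 over 13.72 to 13.83 in wt, from 13.31 over 13.41 to 13.59 in aSYN, from 13.45 over 13.72 to 13.87 in Hsp70 and from 13.57 over 13.76 to 13.90 in aSYN/Hsp70. All but 1 of the aSYN arrays lay below every wt array, and 5 of 6 aSYN/Hsp70 arrays lay above the highest aSYN array. From aSYN to aSYN/Hsp70 it rose by 0.33, or 1.26-fold (SE 0.07, limma adjusted p = 0.0353). From wt to aSYN the difference was -0.30 (SE 0.07, limma adjusted p = 0.227, or 0.0463 without the low-weight arrays), and the interaction was 0.34 (SE 0.10, limma adjusted p = 0.35). The other Canx probe sets did not share this pattern. The brightest, 1415692_s_at, gave -0.19 in aSYN versus wt and -0.16 in aSYN/Hsp70 versus aSYN, and 1428935_at gave -0.01 and -0.27. Without the low-weight arrays, these differences of aSYN/Hsp70 from aSYN were -0.01 for the brightest and -0.13 for 1428935_at. The brightest gave -0.35 in aSYN/Hsp70 versus wt (SE 0.13, limma adjusted p = 0.297), or -0.20 without those arrays. The call was lost when replicate 1, 2, 3, 5 or 6 of aSYN or replicate 1, 2, 3 or 5 of aSYN/Hsp70 was left out, with differences of 0.30 to 0.34 and limma adjusted p of 0.0566 to 0.0912. It was also lost without quantile normalisation (0.30, limma adjusted p = 0.086), without the dim filter (0.114), with the sex covariate (0.076), with the replicate block (0.0623) and over the 12 arrays of these groups alone (0.144), and it held without the low-weight arrays.

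Of the 8 members of ER-associated degradation, 7 were lower in aSYN than in wt (median -0.10) and 7 in aSYN/Hsp70 than in wt (median -0.15, 4 of 8 at an unadjusted p under 0.05, against 14.5% of all probe sets). Without the low-weight arrays the last count was 6 of 8 (median -0.16), and with array weights it was 5 of 8 (median -0.10). In the same comparison all 5 measured oligodendrocyte markers of 6 were lower (median -0.26, 4 of 5 at an unadjusted p under 0.05, or a median of -0.20 without the low-weight arrays). Their summed log2 level ran from 18.08 to 18.25 in wt and from 17.69 to 18.11 in aSYN/Hsp70. The part of this in the difference of the degradation members was not tested. Sel1l encodes the adaptor that couples substrates to the ubiquitin ligase HRD1, the product of Syvn1. Its 5 probe sets shared a sign in aSYN versus wt and in aSYN/Hsp70 versus aSYN. Against wt they had both signs in Hsp70 (-0.19 to 0.05) and in aSYN/Hsp70 (-0.09 to 0.08). In aSYN versus wt they differed by -0.13 (1436774_at, the brightest), -0.40 (1425188_s_at), -0.35 (1425187_at), -0.46 (1430692_a_at) and -0.56 (1453559_a_at). Between aSYN/Hsp70 and aSYN the same probe sets differed by 0.21, 0.37, 0.37, 0.36 and 0.55. On the third of them all 6 aSYN arrays lay below every wt array and every aSYN/Hsp70 array, at 12.07 over a median of 12.41 to 12.57, against 12.62 to 12.87 in wt and 12.65 to 12.95 in aSYN/Hsp70. Without the low-weight arrays the brightest gave 0.14 in place of 0.21. Averaged over the 5 probe sets, Sel1l ran from 12.46 over 12.58 to 12.67 in wt, from 11.996 over 12.19 to 12.42 in aSYN, from 12.36 over 12.44 to 12.68 in Hsp70 and from 12.47 over 12.57 to 12.65 in aSYN/Hsp70. The 6 aSYN arrays were below all wt and all aSYN/Hsp70 arrays on this mean, and overlapped the Hsp70 arrays. The highest aSYN array, at 12.42, was close to the lowest of wt (12.46) and of aSYN/Hsp70 (12.47). The aSYN group mean was 0.38 below that of wt.

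None of the 5 Sel1l probe sets passed the test over all probe sets. Their limma adjusted p ran from 0.157 to 1.0 in aSYN versus wt, from 0.0641 to 0.179 in aSYN/Hsp70 versus aSYN and from 0.227 to 0.763 for the interaction. Unadjusted, 4 of 5 had p under 0.01 in aSYN versus wt, from 0.000151 to 0.00246. Probe sets of a gene share its transcript and the same arrays, so their agreement does not replicate the difference. With limma array weights, 4 of the 5 passed in aSYN versus wt (adjusted p 0.0116 to 0.0281) 2 in aSYN/Hsp70 versus aSYN (0.025 and 0.0338) and 1 for the interaction (1425188_s_at, 0.63, adjusted p = 0.0402), and Canx 1422845_at also passed in aSYN versus wt (0.0123). Leaving out 1 array brought 1425187_at past the threshold without Hsp70 replicate 6 (limma adjusted p = 0.0467) or aSYN/Hsp70 replicate 6 (0.0494), and 1453559_a_at without aSYN replicate 1 (0.0361) or aSYN/Hsp70 replicate 6 (0.0318).

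**Figure D4:**
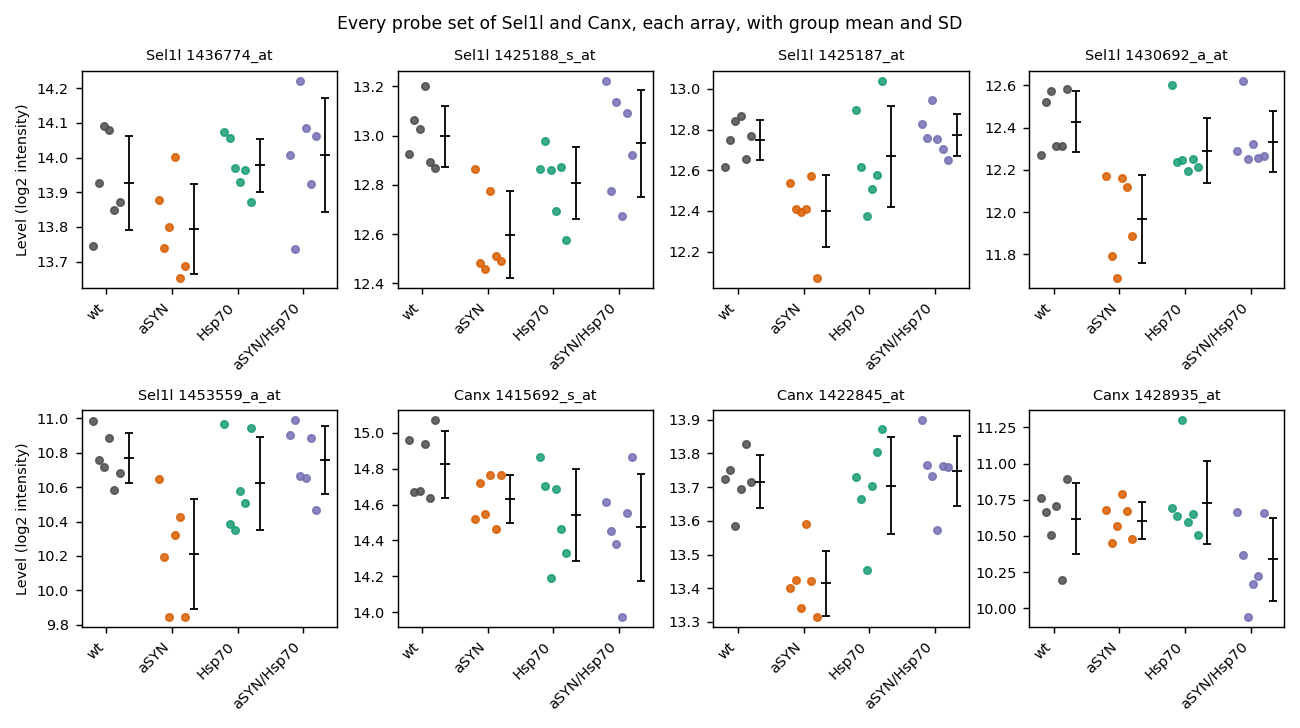
Level of every array (log2 intensity, each panel with its own axis, not starting at 0) for the 5 probe sets of Sel1l and the 3 of Canx, by group, with the group mean and SD beside the points (n = 6). The aSYN group has the lowest mean in the Sel1l panels and in Canx 1422845_at, and aSYN/Hsp70 has it in the other Canx panels.

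Vcp encodes p97, the ATPase that pulls substrates out of the membrane, and had the smallest p of the module in aSYN/Hsp70 versus wt. It ran from 15.23 over 15.38 to 15.57 in wt, from 15.15 over 15.28 to 15.36 in aSYN, from 14.94 over 15.22 to 15.26 in Hsp70 and from 14.92 over 15.09 to 15.31 in aSYN/Hsp70. The medians step down in that order, and neighbouring groups overlapped. The difference of aSYN/Hsp70 from wt was -0.29 (SE 0.08, limma adjusted p = 0.21), with 5 of 6 arrays below the lowest wt array, and that of Hsp70 carriers from non-carriers was -0.19 (SE 0.05, limma adjusted p = 0.19). The other Vcp probe set gave -0.60 in aSYN/Hsp70 versus wt and 0.22 in aSYN versus wt. The former was -0.29 without aSYN/Hsp70 replicate 4 and -0.13 without all low-weight arrays. Herpud1 encodes a stress-induced scaffold of the HRD1 complex. It ran from 13.04 over 13.27 to 13.48 in wt, from 12.93 over 13.19 to 13.51 in aSYN, from 12.99 over 13.17 to 13.24 in Hsp70 and from 12.60 over 13.05 to 13.23 in aSYN/Hsp70. In aSYN/Hsp70 all 6 arrays lay below the wt mean, with a difference of -0.26 (SE 0.11, limma adjusted p = 0.315), or -0.18 without the low-weight arrays. Its other probe set gave -0.08, or 0.0010 without those arrays. Derl2, a channel component, differed by -0.23 from wt in aSYN/Hsp70 (SE 0.09, limma adjusted p = 0.31) and by -0.17 in aSYN (SE 0.09, limma adjusted p = 1.0), and Syvn1 by -0.28 in aSYN/Hsp70 (SE 0.13, limma adjusted p = 0.332). Without the low-weight arrays the aSYN/Hsp70 differences were -0.18 for Derl2 and -0.19 for Syvn1. The other probe set of each gave -0.01 in aSYN/Hsp70 versus wt.

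Both translocation members differed by 0.04 in aSYN versus wt. Sec61b encodes a subunit of the channel through which new proteins enter the ER. It ran from 13.28 over 13.43 to 13.59 in wt, from 13.33 over 13.48 to 13.61 in aSYN, from 13.38 over 13.67 to 13.83 in Hsp70 and from 13.51 over 13.63 to 13.78 in aSYN/Hsp70. Both groups with Hsp70 lay higher, by 0.19 without and 0.18 with aSYN, and together by 0.19 (SE 0.06, limma adjusted p = 0.201), or 0.11 without the low-weight arrays. Above the highest wt array lay 4 of 6 Hsp70 and 5 of 6 aSYN/Hsp70 arrays.

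Arrays of the same group differed in the folding genes as a block. In aSYN, replicate 4 was the highest array for 22 of 37 members and for 13 of the 16 chaperones and isomerases, and replicate 6 the lowest for 12 and for 8. In wt, replicate 4 was highest for 15 members and for 9 of the 16, and replicate 5 lowest for 14 and for 6. In Hsp70, replicate 6 was highest for 15 and for 9 of the 16, and replicate 3 lowest for 12. The aSYN/Hsp70 group had no such leader, with replicates 1, 3 and 6 highest for 9 members each, and replicate 4 lowest for 13. Replicates 3 and 6 of Hsp70 and replicate 4 of aSYN/Hsp70 are among the arrays of low weight, whereas replicate 4 of wt and of aSYN are not. The median pooled SD within groups was 0.21 over the brightest probe sets of the tested members. It was 0.32 over all tested probe sets, which include dimmer ones of a gene, so the values are not like for like. The pooled SD of single tested members ran from 0.11 for Ssr1 and Vcp to 1.00 for Trib3.

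**Figure D5:**
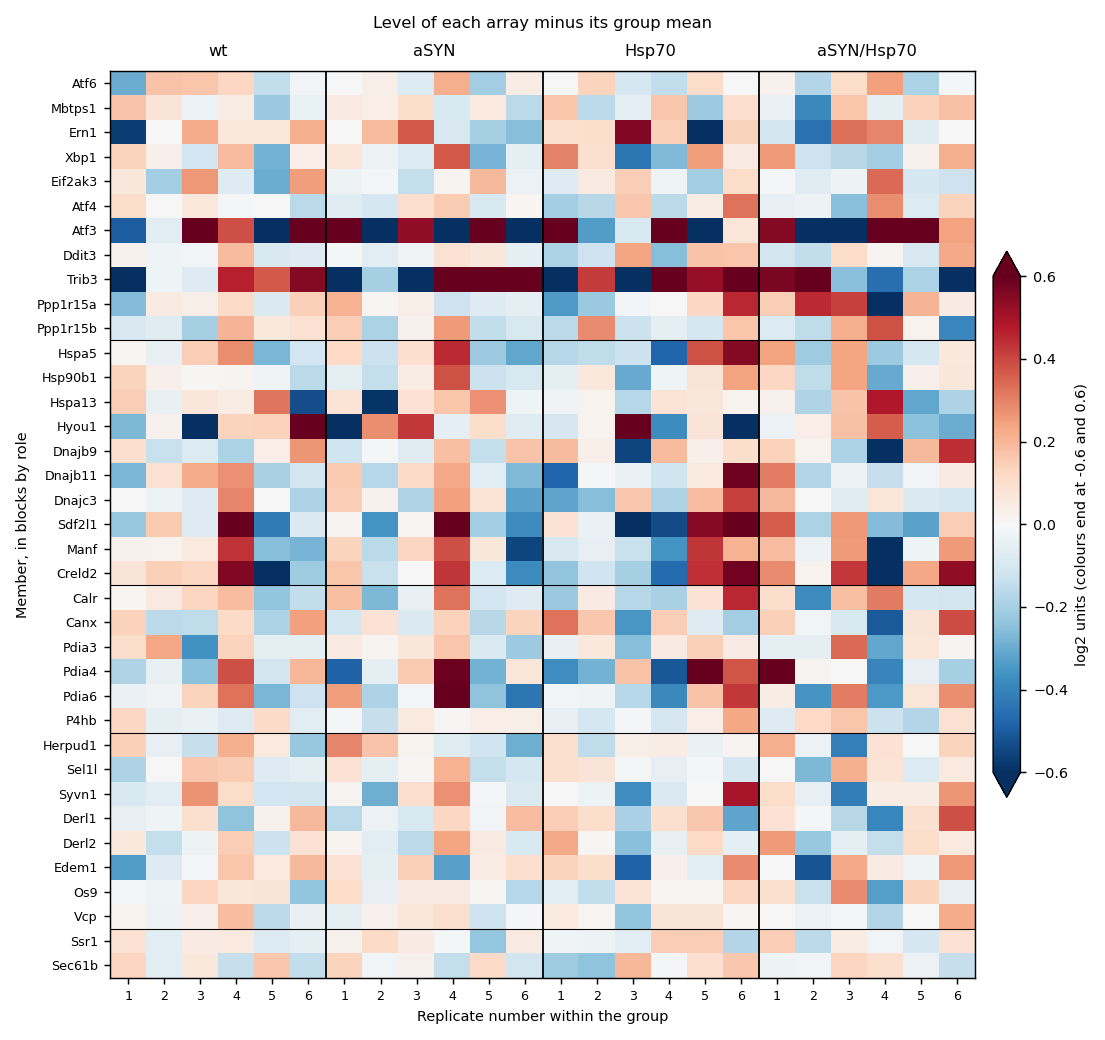
Level of each of the 37 members (rows, in blocks by role) in each of the 24 arrays minus the mean of its group, in log2 units, with colours ending at -0.6 and 0.6. Red columns for the chaperones and isomerases stand out in wt replicate 4, aSYN replicate 4 and Hsp70 replicates 5 and 6.

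On the brightest probe set, the members with an ERSE in the window were all lower in aSYN than in wt, 8 of 8, from -0.20 to -0.12 with a median of -0.18. Other probe sets of Dnajc3 (1449373_at, 0.22, and 1449372_at, 0.01) and Pdia6 (1430983_at, 0.08) were higher. All of these members but Syvn1 belong to the HSP70-type chaperones and partners or to the lectin chaperones and isomerases. In those role groups 9 of 10 and 6 of 6 were lower, so ERSE and role cannot be told apart here. Of the 23 members with a window and no ERSE, 17 were lower (median -0.08, range -0.37 to 0.16). Outside the module, 12 named genes had an ERSE, and of the 7 with a measured level in the test 3 were lower (median 0.00). Between aSYN/Hsp70 and aSYN, 5 of the 8 were higher (median 0.19) and 13 of the 23 (median 0.04), whereas 4 of the 7 outside the module were lower (median -0.19). These are descriptions with no test, and on the brightest probe set 0 of the 8 passed limma in aSYN versus wt, or reached an unadjusted p under 0.05.

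Other values also differed between the groups. For 4 control transcripts, the mean log2 signal at the 3' end minus that at the 5' end, a measure of RNA length, averaged 0.97 ± 0.08 in aSYN (SD, n = 6, range 0.83 to 1.07), against 0.85 ± 0.13 in wt (0.69 to 1.02), 0.92 ± 0.18 in Hsp70 and 0.85 ± 0.09 in aSYN/Hsp70 (0.73 to 0.97). The summed log2 level of 5 measured endothelial markers of 6 ran from 13.88 to 14.09 in aSYN, from 13.96 to 14.31 in wt, from 14.23 to 14.46 in Hsp70 and from 13.99 to 14.68 in aSYN/Hsp70. That of 6 pituitary markers ran from 10.95 to 11.60 in aSYN and from 10.70 to 17.44 in wt, with Cga and Tshb below the filter in this data set. The labels used here give no sex. By Y-linked probe sets against Xist, the samples that read as female numbered 4 of 6 for wt and also for aSYN, 2 for aSYN/Hsp70 and 3 for Hsp70. The part of these in the module's differences was not tested.

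Beyond the module, 66 of 69 listed genes of the same pathways were measured and 65 tested: oxidative folding and quality control, degradation, translocation with the signal peptidase, and the integrated stress response. They were balanced in aSYN versus wt, with 35 of 66 lower (median -0.02) and 4 of 65 at an unadjusted p under 0.05, and in aSYN/Hsp70 versus aSYN 31 were lower (median 0.02), with 16 at that p (24.6%, against 19.6% of all). A single gene passed, Ssr3, which encodes the gamma subunit of the translocon-associated protein complex, to which member Ssr1 also belongs. It ran from 13.94 over 14.03 to 14.10 in wt, from 13.68 over 13.82 to 13.92 in aSYN, from 13.73 over 13.89 to 13.97 in Hsp70 and from 13.96 over 14.11 to 14.28 in aSYN/Hsp70. The aSYN arrays lay below all wt and all aSYN/Hsp70 arrays. Ssr3 rose by 0.30 from aSYN to aSYN/Hsp70 (SE 0.07, limma adjusted p = 0.0322), differed by -0.21 between aSYN and wt (limma adjusted p = 0.514) and had an interaction of 0.45 (limma adjusted p = 0.0817). Dnajc10, a disulfide reductase of the degradation pathway, differed by 0.29 in the same comparison (SE 0.07, limma adjusted p = 0.0555). The brightest probe set of the partner Ssr1 did not show this pattern, at 0.04 in aSYN versus wt and -0.05 in aSYN/Hsp70 versus aSYN. Its other probe sets disagreed, at 0.05 (1417764_at), 0.13 (1441327_a_at) and -0.37 (1448843_at) in aSYN versus wt. In aSYN/Hsp70 versus wt they gave 0.32, -0.10 and -0.20, or 0.27, 0.04 and -0.12 without the low-weight arrays. On 1448843_at the aSYN mean was thus below those of wt and aSYN/Hsp70, as for Ssr3. In aSYN/Hsp70 versus aSYN the Ssr1 probe sets had both signs.

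The probe sets of 1 member often disagreed in sign. Of the 23 members with at least 2 tested probe sets, 10 had both signs in aSYN versus wt and 15 in aSYN/Hsp70 versus aSYN. Over all 78 tested probe sets of members, 55 were lower in aSYN than in wt (median -0.10) and 35 in aSYN/Hsp70 than in aSYN (median 0.05).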

How the data were processed

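The authors deposited 1 linear intensity for each probe set on each array. Per the values themselves, each of the 24 arrays had been scaled to a mean of 2500 without its lowest and highest 2% of probe sets. Which program summarised the probes is not given here. Intensities were transformed as log2(intensity + 16), which understates differences of dim probe sets, and quantile normalised. Of 45101 probe sets, 64 controls and the dimmest 40% were left out, and 27023 were tested. Genes were named from probe sets with 1 symbol (34958), of which 34754 matched a GRCm38.p6 gene table by gene ID.

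Each comparison was a contrast in 1 limma fit of all arrays (limma 3.58.1, R 4.3.3), with Benjamini-Hochberg adjustment over all 27023 probe sets and a threshold of 0.05. Adjusted p-values in the text are limma's. When aSYN/Hsp70 versus aSYN was simulated on 27023 probe sets, 24% of changes of 0.5 log2 units and 56% of changes of 1 were recovered, with 8 false calls.

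Members and lists were chosen with earlier results of these data known. Named in full were 8 members chosen by role, every member with a called probe set, and the 3 members with the smallest p in each comparison. The alternatives were another offset, normalisation, filter or variance model, array weights, sex, the replicate block, fewer arrays and each array left out. The number of arrays limits the precision. Motif searches used RefSeq promoter windows. Figures were drawn with matplotlib 3.10.9.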

Additional observations from a re-analysis of the deposited data

Results flagged for a closer look

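Among 120 groups of 6 arrays examined for named members, Sel1l and Canx probe sets and role scores, 10 held 1 array far from the rest, and chance alone gives about 1 in 20. In aSYN, replicate 4 stood above the others for Hsp90b1 (14.40), Sdf2l1 (11.55) and the lectin chaperone and isomerase score (0.12). Also in aSYN, replicate 2 stood low for Hspa13 (12.25) and replicate 6 low for Sel1l 1425187_at (12.07). In Hsp70, replicate 3, an array of low weight, stood low for Dnajb9 (12.79), Vcp (14.94) and the degradation score (-0.28), and replicate 1 stood high for Sel1l 1430692_a_at (12.60). In aSYN/Hsp70, replicate 2 stood high for the same Sel1l probe set (12.62).

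The effect of Hsp70 pointed in opposite directions without and with aSYN for Hspa13, at -0.14 and 0.32, an interaction of 0.46 (limma adjusted p = 0.594), or 0.26 without the 4 low-weight arrays. This is its brightest probe set, and on 1433772_at both effects were negative, at -0.25 and -0.32. For Sel1l 1425188_s_at it stood at -0.19 and 0.37, an interaction of 0.56 (limma adjusted p = 0.227). Neither interaction passed limma's test over all probe sets, but that of Sel1l did with array weights (0.63, limma adjusted p = 0.0402) and with array weights and the sex covariate (0.65, limma adjusted p = 0.048). Over all probe sets these settings gave 81 and 46 interaction calls, where the fit without weights gave 0.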

How the results depend on the processing

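Across all comparisons, settings and arrays left out, 0 members were called on the brightest probe set, and reading every probe set gave 1 in aSYN/Hsp70 versus aSYN. No median of the module moved by more than the spread between arrays. In aSYN versus wt it ran from -0.14 to -0.08 with 1 array left out and from -0.11 to -0.09 under the other settings, and in aSYN/Hsp70 versus aSYN from 0.04 to 0.11 and from 0.02 to 0.09. The medians of aSYN/Hsp70 versus wt and versus Hsp70 (both -0.01) and of Hsp70 carriers (0.03) took either sign. Among the probe sets of named members followed through all settings, the values that reversed were those of differences near 0. Canx 1428935_at in aSYN versus wt, -0.01, ran from -0.10 to 0.04 with 1 array left out, above 0 without aSYN replicate 2 (0.02) or 6 (0.01), or without wt replicate 1 (0.01), 4 (0.0042) or 6 (0.0405). Herpud1 in the same comparison, -0.05, was 0.0093 without aSYN replicate 6. Larger differences of other members also reversed. Ppp1r15a in aSYN/Hsp70 versus wt, -0.16, was 0.09 without aSYN/Hsp70 replicate 4. Trib3 in aSYN versus wt, -0.11, was 0.28 without aSYN replicate 1. Calls over all probe sets in aSYN/Hsp70 versus aSYN, 194, ran from 49 to 814 with 1 array left out, and were 43 without the dim filter, 324 with array weights, 102 without the low-weight arrays, 90 with the sex covariate and 7 over these groups alone. In aSYN versus wt the single call became 217 with array weights. The causes were not tested.

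A check of whether the replicate numbers shared by the groups pair the samples gave no clear answer. Of 36 same-numbered pairs 3 correlated above 0.1 (median 0.02, against -0.0074 for other pairs). The arrays that correlated best with their own number were 8 of 24. How many would do so by chance was not worked out, so the count does not settle the question. With the replicate number as a block, 0 members were called, 70 probe sets were called in aSYN/Hsp70 versus aSYN, and Canx 1422845_at differed by 0.33 with a limma adjusted p of 0.0623. Low signal left 12 probe sets of members untested, among them the only one of Atf3. A change of 0.5 log2 units was recovered in 24% of simulated cases. The simulation used the spreads of all tested probe sets (median SD 0.32). Those of the members' brightest probe sets were smaller (median 0.21), so 24% is not the members' own rate.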
